A study of Mus musculus with 16 samples.

Results

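Granulocytic myeloid-derived suppressor cells (G-MDSCs) from the spleen of *Nlrp3-/-* and wild-type (WT) mice were compared over all genes. The 8 libraries, 4 per genotype, were chosen from the 16 of the series by the subset and genotype in the sample labels. The WT mice were C57BL/6J bought from the Jackson Laboratory, and the *Nlrp3-/-* mice were a line from another laboratory on a C57BL/6 background. Littermates are not mentioned, so genotype cannot be told apart from the source of the mice here. All mice bore B16.F10 melanoma, a murine tumor cell line, from 300000 cells implanted subcutaneously in the back. The study reported smaller B16.F10 tumors and a shifted balance of splenic MDSC subsets in *Nlrp3-/-* mice, which lack the gene in all cells. Tumor size and the state of the host thus cannot be told apart from genotype here. Their part in the results was not tested. The cells were sorted from the spleen as CD11b high, Ly6C- and Ly6G+, and each library holds the RNA of 1 mouse. The *Nlrp3-/-* allele is a germline insertion. Translation from the start codon in exon 2 runs into EGFP, whose SV40 poly(A) signal ends the transcript, and the neomycin marker placed in intron 2 had been deleted by Cre. Mice were matched for sex and age, were 6 to 12 weeks old, and by default were killed 15 days after implantation, and no other day is given for the sequenced samples. The series' other 8 libraries are monocytic MDSCs (M-MDSCs) that bear the same animal names in the labels and were taken to be from the same mice, and they enter below only where the genotype difference was tested between the subsets.

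MDSCs are immature myeloid cells that accumulate in tumor-bearing hosts and restrain T cells, and the granulocytic subset resembles neutrophils, with abundant S100 alarmins, granule proteins and the receptors CXCR2 and CD11b. NLRP3 is a cytosolic sensor of damage and infection. Once triggered, it assembles with the adaptor PYCARD and caspase-1 into the inflammasome, which cleaves pro-IL-1β and pro-IL-18 and opens gasdermin D pores. The comparison asked which transcripts of G-MDSCs differ between tumor-bearing hosts with and without this sensor.

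The libraries held 3250021 to 5435355 counts in WT and 5285161 to 6079866 in *Nlrp3-/-* mice, where 3 counts correspond to 0.493 to 0.923 CPM (counts scaled to library size). The summed level of 9 neutrophil markers was 85424 to 110770 CPM in WT and 101961 to 123377 CPM in *Nlrp3-/-* libraries, *S100a8* and *S100a9* first among them. These genes carried much of the sum, which therefore says little of the other markers. Of the 9 markers 2, *Cxcr2* and *Itgam*, were called lower in *Nlrp3-/-* mice and 0 higher. *Ly6g*, the marker of the sort, was not among the gene symbols of the deposited counts, so it could not be analysed. Monocyte markers summed to 512 to 729 CPM in WT and 748 to 894 CPM in *Nlrp3-/-* libraries. The precursor ribosomal RNA *Rn45s* took 14.1 to 25.9% of the counts in WT and 5.93 to 9.33% in *Nlrp3-/-* libraries (two-sided exact permutation test, p = 0.0286, the smallest p this permutation test can give for 4 mice against 4). The share of the 20 highest genes was 33.2 to 43.2% and 27.9 to 29.8% (exact permutation test, p = 0.0286), and 21.4 to 23.7% and 22.9 to 24.4% when *Rn45s* was left out of it (exact permutation test, p = 0.171). 12309 to 12822 genes were detected in WT and 11541 to 12074 in *Nlrp3-/-* libraries. Without the *Rn45s* counts 1496 genes were called instead of 1522, 402 higher and 1094 lower, and 1480 of them were called in both fits. The part of the number of detected genes in the results was not tested.

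*Nlrp3*, the targeted gene (mm10, chromosome 11, 59541568 to 59566956, plus strand), had 222, 202, 258 and 248 CPM in WT and 10.0, 8.56, 5.22 and 4.01 CPM in *Nlrp3-/-* mice. All WT libraries lay above all *Nlrp3-/-* libraries (exact permutation test, two-sided, p = 0.0286), with a log2 fold change of -5.06 (SE 0.26, FDR = 6.79e-08). The genotype labels therefore held in all 8 libraries. QuantSeq reads the 3′ end of a transcript, away from the cassette in exon 2, so the remaining 21 to 59 counts per *Nlrp3-/-* library say nothing of protein, and where in the gene they lie was not tested.

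Of 9273 genes with enough counts to be tested, 1522 were called (16.4%), 436 higher (4.7%) and 1086 lower (11.7%) in *Nlrp3-/-* mice. A gene was called when the FDR, the Benjamini-Hochberg adjusted p of edgeR's quasi-likelihood test, was under 0.05 and the fold change above 1.5, and a fold change is given as log2 of *Nlrp3-/-* over WT with its standard error (SE). In 1356 of the called genes the genotypes were apart in all 8 mice, which held for 23% of the genes tested, 8.84% higher and 14.2% lower. Over the tested genes the median log2 fold change was 0.03. The split between higher and lower genes depended on the scaling, with 793 higher and 854 lower when only the library size was used, which moved the median of all tested genes to 0.16, and 636 higher and 992 lower with upper-quartile factors. It is therefore a statement relative to the bulk of the genes. With 1 library left out the number of higher genes was 217 to 532, and it fell by more than 1.5 times without *Nlrp3-/-* replicate 2 (217), 3 (272) or 4 (233) or WT replicate 2 (259). Below, a call that was lost when a single library was left out is given with the range of its FDR over the libraries named.

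**Figure D1:**
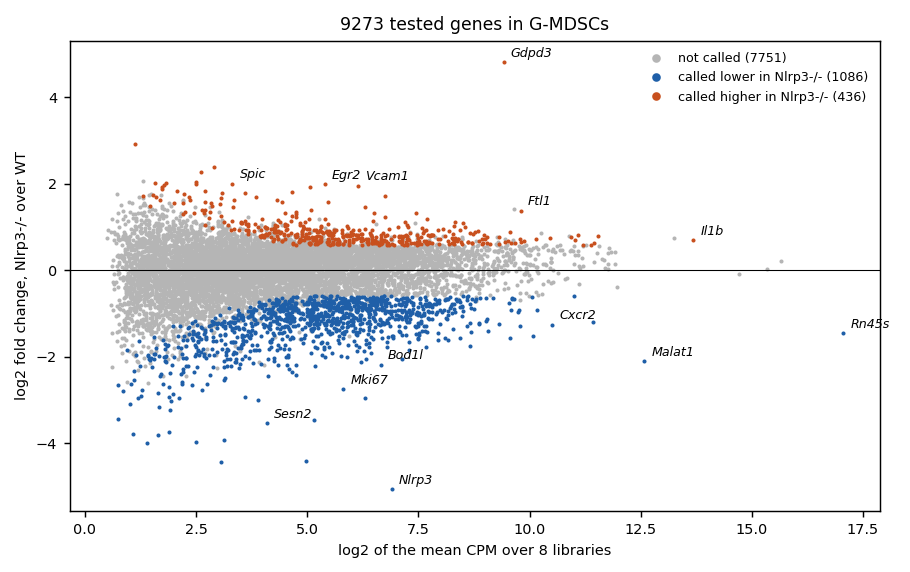
Each point is 1 of the 9273 tested genes, with log2 of its mean CPM over the 8 libraries on the x axis and the log2 fold change of *Nlrp3-/-* over WT on the y axis. The 436 genes called higher are orange, the 1086 called lower are blue, and *Gdpd3* (4.81) and *Nlrp3* (-5.06) lie farthest from 0 among the labelled genes.

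The called genes differed in the composition of their transcripts. The longest annotated transcript of a gene had a median GC content of 54.1% among the higher genes, 44.6% among the lower genes and 49.5% among all tested genes, and a median length of 2378, 4944.5 and 3411 bases. Over 10 equal bins of the genes ordered by GC content the median log2 fold change ran from -0.46 in the lowest bin to 0.35 in the highest, and over 10 bins by length from 0.30 in the shortest to -0.50 in the longest. In every WT library the genes of highest GC content lay below those of lowest GC content, by 0.163 to 0.462 log2 units relative to the mean of the 8 libraries, and in every *Nlrp3-/-* library above them, by 0.236 to 0.440. Such a trend can come from how the libraries were made or from which genes the cells transcribe, and these cannot be told apart here. The counts of the gene lists are therefore also given from a fit with a correction for GC content and length, and a named gene that loses its call in it has its FDR from that fit. The correction removes the trend from each library. After it 968 genes were called, 411 higher (4.43%) and 557 lower (6.01%), 696 of which had been called before.

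**Figure D2:**
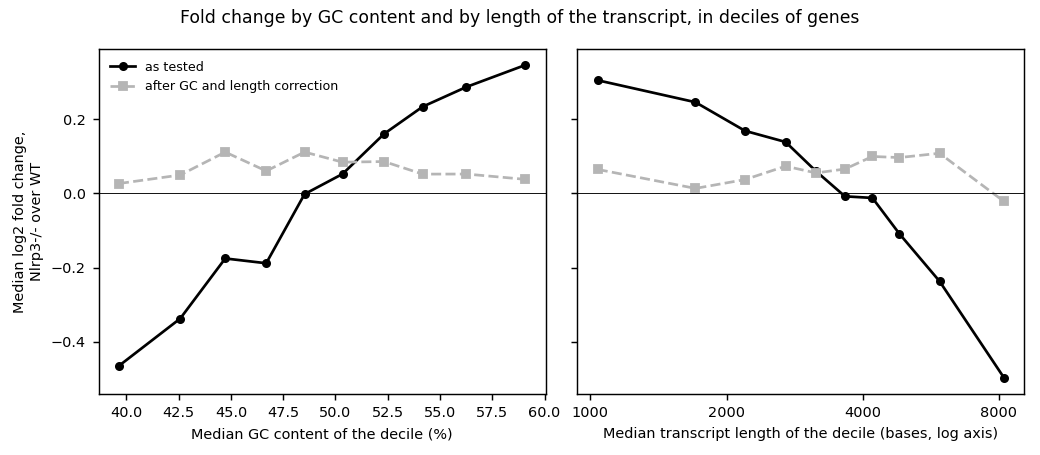
The genes were put into 10 equal bins by the GC content (left) and by the length (right, log axis) of the longest transcript, and the median log2 fold change of each bin is plotted at the median GC content or length of that bin. Before the correction (black) the medians rose from -0.46 to 0.35 with GC content and fell from 0.30 to -0.50 with length, and after it (grey) they lay between -0.02 and 0.11.

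Among the genes that were higher without *Nlrp3*, *Gdpd3* stood first by p. It encodes a glycerophosphodiester phosphodiesterase, an enzyme that cleaves lysophospholipids. *Gdpd3* had 59.2, 38.8, 41.0 and 49.0 CPM in WT and 1421, 1342, 1071 and 1442 CPM in *Nlrp3-/-* mice, a log2 fold change of 4.81 (SE 0.20, FDR = 8.63e-09), a 28.1-fold difference in which every *Nlrp3-/-* mouse lay far above every WT mouse. The gene lies on chromosome 7 from 126766334 to 126775649 (mm10, plus strand), 514 bases after the end of *Mapk3* and 1305 bases before *Ypel3* on the same strand. *Mapk3*, the kinase ERK1, had 275, 186, 180.1 and 229.7 CPM in WT and 292, 367, 305 and 313 CPM in *Nlrp3-/-* mice and a log2 fold change of 0.55 (FDR = 0.0356), and *Ypel3* 1122, 497, 748 and 720.5 CPM in WT and 1009, 1138, 1247 and 1274 CPM in *Nlrp3-/-* mice and 0.60 (FDR = 0.0670). Neither neighbour was called, and both were named after their values were seen. The sequence just upstream of *Gdpd3*, between the 2 genes, is shown because no other gene was called higher by as much. It is chr7:126766164-126766333 (GRCm38.p6, RefSeq, plus strand, 170 bases, 5′ to 3′).
*Gdpd3*: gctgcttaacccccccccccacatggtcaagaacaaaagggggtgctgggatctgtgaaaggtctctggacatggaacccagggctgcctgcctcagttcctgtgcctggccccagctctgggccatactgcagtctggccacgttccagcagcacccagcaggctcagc

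The other 11 genes with the smallest p among those higher in *Nlrp3-/-* mice, without overlap between the genotypes, were *Pisd-ps1* (1.45, FDR = 6.49e-05), *C1qc* (1.92, FDR = 9.9e-05), *Vcam1* (1.95, FDR = 0.00014), *Rmnd5b* (1.72, FDR = 0.000394), *Uqcrq* (1.01, FDR = 0.000446), *Slc37a2* (1.63, FDR = 0.000476), *Gm5617* (1.34, FDR = 0.00112), *Axl* (1.82, FDR = 0.00118), *Kdm4a* (1.04, FDR = 0.00125), *Lamtor1* (1.12, FDR = 0.00145) and *Sdc3* (1.79, FDR = 0.00182), each with its log2 fold change in brackets. *Rmnd5b*, whose product belongs to the CTLH ubiquitin ligase, had 58.2, 26.6, 56.9 and 58.8 CPM in WT and 115, 167, 172 and 207 CPM in *Nlrp3-/-* mice. WT replicate 2 was the lowest of all, and the other 3 WT libraries were close to each other. *Pisd-ps1* had 46.7, 36.3, 41.0 and 43.7 CPM in WT and 106, 123, 100.2 and 129.9 CPM in *Nlrp3-/-* mice, again without overlap. It is a pseudogene on chromosome 11 from 3125904 to 3131004 (mm10), so its reads could also stem from a related sequence. *Kdm4a* encodes a histone H3 lysine demethylase and *Lamtor1* the anchor of the Ragulator complex on lysosomes. All 12 genes stayed called after the correction and in each of the 8 fits without 1 library.

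**Figure D3:**
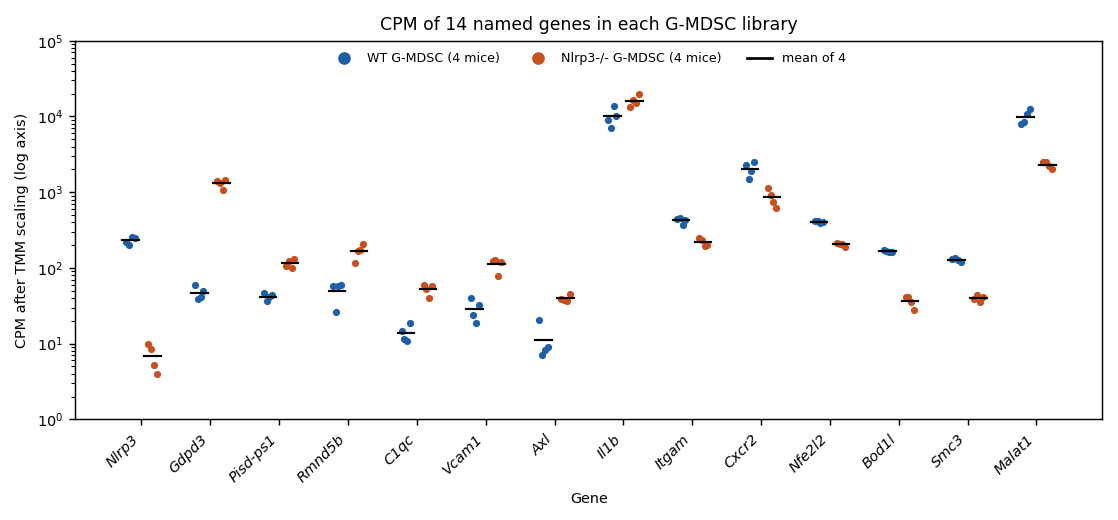
CPM after TMM scaling (log axis) of 14 named genes in the 4 WT (blue) and 4 *Nlrp3-/-* (orange) G-MDSC libraries, with the mean of each genotype as a line. *Gdpd3* lay at 1071 to 1442 CPM in *Nlrp3-/-* against 38.8 to 59.2 CPM in WT libraries, and only *Il1b* overlapped between the genotypes.

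Besides *Nlrp3*, the lower genes with the smallest p included several that encode large proteins of the cytoskeleton, the nucleus and membrane traffic. They were *Bod1l* (-2.18, FDR = 9.16e-06), *Cntrl* (-2.06, FDR = 1.24e-05), *Ipcef1* (-1.90, FDR = 2.25e-05), *Rock2* (-1.56, FDR = 2.25e-05), *4930594C11Rik* (-2.42, FDR = 2.25e-05), *Smc3* (-1.68, FDR = 2.25e-05), *Jmjd1c* (-1.84, FDR = 2.25e-05), *Trip11* (-2.06, FDR = 2.25e-05), *Malat1* (-2.11, FDR = 2.25e-05), *Prpf4b* (-1.76, FDR = 2.25e-05) and *Rab27a* (-1.67, FDR = 2.36e-05). *Bod1l*, which protects stalled replication forks, had 172, 168, 160.1 and 161 CPM in WT and 41.4, 41.1, 35.7 and 27.7 CPM in *Nlrp3-/-* mice. *Cntrl*, the centrosome protein centriolin, had 208, 218, 250.3 and 230.3 CPM in WT and 46.9, 67.3, 56.1 and 47.2 CPM in *Nlrp3-/-* mice. In both genes the WT mice differed little among themselves, and the lowest WT mouse lay more than 100 CPM above the highest *Nlrp3-/-* mouse. *Smc3* encodes a core subunit of cohesin and *Rab27a* the GTPase that docks secretory granules. *Malat1*, a long nuclear non-coding RNA, had 7961, 8502, 10675 and 12654 CPM in WT and 2487, 2518, 2244 and 1995 CPM in *Nlrp3-/-* mice. Its share was thus lower in every *Nlrp3-/-* library, in the same libraries in which *Rn45s* was lower. All of these calls held after the correction and without any 1 library.

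The most abundant genes called higher were *Il1b* (0.70, FDR = 0.0378), *Msrb1* (0.78, FDR = 0.0106, 0.135 after the correction), *Lcp1* (0.62, FDR = 0.0442), *Slpi* (0.60, FDR = 0.0460, 0.368 after the correction), *Taldo1* (0.59, FDR = 0.0189, 0.272 after the correction), *Dusp1* (0.81, FDR = 0.0388, 0.135 after the correction), *Junb* (0.71, FDR = 0.0450, 0.463 after the correction) and *Rpl37* (0.78, FDR = 0.00597, 0.0945 after the correction). *Msrb1*, a methionine sulfoxide reductase, had 2713, 1552, 2321 and 2205 CPM in WT and 3197, 3933, 3849 and 4147 CPM in *Nlrp3-/-* mice, and *Slpi*, an inhibitor of neutrophil elastase, had 2677, 1586, 2440.2 and 1789 CPM in WT and 2638, 3367, 3257 and 3568 CPM in *Nlrp3-/-* mice, where WT replicate 1 lay above the lowest *Nlrp3-/-* mouse. *Lcp1* encodes the actin bundler L-plastin. The abundant lower genes were *Rn45s* (-1.45, FDR = 0.00162), *Malat1* (-2.11, FDR = 2.25e-05), *Ptprc* (-1.20, FDR = 0.000149), *Iqgap1* (-0.59, FDR = 0.0235, 0.312 after the correction), *Cxcr2* (-1.26, FDR = 0.00152), *Klf6* (-0.92, FDR = 0.00793, 0.132 after the correction), *2810474O19Rik* (-1.52, FDR = 5.04e-05) and *Ncor1* (-0.61, FDR = 0.0164, 0.458 after the correction). *Ptprc*, the leukocyte phosphatase CD45, had 4139.9, 3832, 3621 and 3752 CPM in WT and 1549, 1811, 1815 and 1524 CPM in *Nlrp3-/-* mice. It was lower in each *Nlrp3-/-* mouse than in any WT mouse. *Il1b* was not called without any 1 library other than WT replicate 3 and *Nlrp3-/-* replicate 1 (FDR = 0.0673 to 0.1101), *Lcp1* without any 1 library other than WT replicates 3 and 4 (FDR = 0.0592 to 0.106) and *Slpi* without any 1 library other than WT replicates 1 and 3 and *Nlrp3-/-* replicate 1 (FDR = 0.0946 to 0.121). *Taldo1* lost its call without WT replicates 2 or 4 or *Nlrp3-/-* replicates 2 or 4 (FDR = 0.0366 to 0.0664, or a fold change of 1.5 at most), *Dusp1* without any 1 library other than WT replicates 3 and 4 (FDR = 0.0543 to 0.0928) and *Junb* without any 1 library other than WT replicates 3 and 4 (FDR = 0.0540 to 0.136). *Iqgap1* did not pass without any 1 library other than WT replicate 4 and *Nlrp3-/-* replicate 4 (FDR = 0.0346 to 0.0674, or a fold change of 1.5 at most) and *Ncor1* without WT replicates 1 or 4 or *Nlrp3-/-* replicates 1 or 3 (FDR = 0.0275 to 0.0510, or a fold change of 1.5 at most).

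Genes of splenic macrophages were higher in the *Nlrp3-/-* libraries. Of 10 markers, 9 had enough counts, 8 were higher and 0 lower, and the median log2 fold change was 1.82, against 0.03 over all tested genes. After the correction 7 were higher (median 1.52). Over all tested genes 4.7% were higher, and 4.43% after the correction. The genes of complement C1q, *C1qa* (1.58, FDR = 0.00755), *C1qb* (1.39, FDR = 0.00641) and *C1qc* (1.92, FDR = 9.9e-05), encode the chains that start the classical pathway. *C1qc* had 14.9, 11.7, 10.8 and 18.8 CPM in WT and 59.4, 52.6, 40.0 and 58.5 CPM in *Nlrp3-/-* mice, and *C1qa* 45.6, 15.2, 10.4 and 18.2 CPM in WT and 60.6, 69.8, 56.6 and 79.7 CPM in *Nlrp3-/-* mice. *Vcam1* (1.95, FDR = 0.00014), *Axl* (1.82, FDR = 0.00118), *Spic* (2.00, FDR = 0.00303), *Cd163* (2.26, FDR = 0.0116) and *Cd5l* (1.58, FDR = 0.0286, 0.0625 after the correction) were higher too, where *Vcam1* is an adhesion molecule of red pulp and erythroblastic island macrophages, *Axl* a receptor for dying cells, *Spic* the transcription factor of red pulp macrophages, *Cd163* the hemoglobin scavenger receptor and *Cd5l* a secreted macrophage protein. *Vcam1* had 40.5, 24.1, 18.7 and 32.6 CPM in WT and 123, 128, 77.9 and 118 CPM in *Nlrp3-/-* mice. In *C1qa*, *C1qb* and *Cd5l* WT replicate 1 was the highest WT library, at 45.6, 33.1 and 22.6 CPM. *Adgre1*, which encodes F4/80, had a log2 fold change of 0.47 (FDR = 0.133), and *Mertk* had no more than 4 counts in any library.

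The 10 markers together made up 117 to 216 CPM in WT and 356 to 491 CPM in *Nlrp3-/-* libraries, a small share beside the neutrophil markers. In sorted bulk samples, more macrophages among the cells and more of these transcripts per cell cannot be told apart. *Cd5l* fell short without any 1 library other than WT replicates 1 and 3 and *Nlrp3-/-* replicate 1 (FDR = 0.0530 to 0.0917). *Gzma* (1.29, FDR = 0.00423) and *Nkg7* (0.99, FDR = 0.0180, 0.0933 after the correction), which natural killer cells express, and *Csf1r* (0.64, FDR = 0.0388, 0.0593 after the correction), the receptor of monocytes and macrophages, were higher, and *Ms4a1* (-1.58, FDR = 0.000751) and *Ly86* (-1.75, FDR = 0.0284) were lower, the first a B cell gene and the second expressed by monocytes and B cells. None of the other 9 tested monocyte, B cell and NK cell markers nor any of 6 T cell markers was called. Of 5 tested platelet markers 1 was higher, and of 4 tested eosinophil markers 0 were called. Summed NK cell markers were 26.0 to 47.9 CPM in WT and 56.9 to 88.7 CPM in *Nlrp3-/-* libraries. Summed eosinophil markers were 23.6 to 44.6 and 45.8 to 48.5 CPM. The sums of B cell, T cell, platelet, erythroid and basophil markers overlapped between the genotypes. Of 5 melanoma genes 3 were at 0 in all 8 libraries, as were the 5 hemoglobin genes. *Nkg7* was not called without WT replicate 4 or *Nlrp3-/-* replicates 3 or 4 (FDR = 0.0510 to 0.0542), *Csf1r* without any 1 library other than WT replicates 1 and 3 and *Nlrp3-/-* replicate 1 (FDR = 0.0831 to 0.105) and *Ly86* without WT replicate 4 or *Nlrp3-/-* replicates 1, 2 or 3 (FDR = 0.0597 to 0.107).

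The stretches upstream of *C1qb* and *C1qc* are shown because both genes were higher and lie within 10 kb of each other on the minus strand of chromosome 4. PU.1, the ETS factor that drives most myeloid genes, binds sites built around the letters GAGGAA, and capitals mark these letters on either strand (GAGGAA or TTCCTC). They occur in the 250 bases before the start of 23.3% of the 32851 promoters in the RefSeq table, so that a match is common, and a match is a description and no evidence of binding. The sequences are chr4:136886201-136886450 and chr4:136893066-136893164 (GRCm38.p6, minus strand, 5′ to 3′), 250 and 99 bases that end before the annotated starts.
*C1qb*: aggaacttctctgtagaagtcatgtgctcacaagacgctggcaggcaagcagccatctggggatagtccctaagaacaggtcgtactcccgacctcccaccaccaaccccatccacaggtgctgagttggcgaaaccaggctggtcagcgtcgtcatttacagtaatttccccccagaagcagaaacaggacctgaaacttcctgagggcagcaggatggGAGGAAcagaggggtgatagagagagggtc
*C1qc*: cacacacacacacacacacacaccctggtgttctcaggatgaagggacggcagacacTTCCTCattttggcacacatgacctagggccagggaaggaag

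Of 29 tested inflammasome genes 4 were lower, *Nlrp3* included, and 0 higher, where 11.7% and 4.7% of all tested genes were (median -0.11, 2 higher and 2 lower after the correction, 2 to 4 lower with 1 library left out). Apart from *Nlrp3*, the lower ones were *Nlrp1b* (-2.22, FDR = 0.0328, 0.0583 after the correction), *Casp4* (-1.07, FDR = 0.000647) and *Nek7* (-0.99, FDR = 0.0328, 0.299 after the correction), another sensor, the caspase of the non-canonical inflammasome that binds lipopolysaccharide, and the kinase that bridges NLRP3 subunits. *Casp4* had 67.7, 87.0, 94.7 and 77.6 CPM in WT and 41.1, 38.3, 39.6 and 36.5 CPM in *Nlrp3-/-* mice, so that the genotypes were well apart. *Nlrp1b* was rare, with 10.5, 6.23, 7.56 and 8.62 CPM in WT and 0, 3.91, 2.15 and 0.956 CPM in *Nlrp3-/-* mice. The adaptor *Pycard*, *Casp1* and *Gsdmd* were not called. In the IL-1 family 2 higher and 2 lower of 17 tested were called (median 0.23, 3 higher and 1 lower after the correction, 0 to 2 higher and 1 to 3 lower with 1 library left out). The ligands *Il1b* (0.70, FDR = 0.0378) and *Il18* (0.98, FDR = 0.0265) were higher. *Il1b*, the precursor of the main cytokine that the inflammasome releases, had 9026, 7080.1, 13658 and 10258 CPM in WT and 13197, 16613, 15279 and 19738 CPM in *Nlrp3-/-* mice, in which WT replicate 3 lay above *Nlrp3-/-* replicate 1. The receptor chain *Il1rap* (-0.87, FDR = 0.0284, 0.250 after the correction) and the inhibitory kinase *Irak3* (-1.05, FDR = 0.00585) were lower. *Nlrp1b* lost its call without any 1 library other than WT replicate 2 and *Nlrp3-/-* replicates 1 and 2 (FDR = 0.0501 to 0.0900), *Nek7* without WT replicates 1 or 2 or *Nlrp3-/-* replicates 2 or 4 (FDR = 0.0582 to 0.0978) and *Il1b* without any 1 library other than WT replicate 3 and *Nlrp3-/-* replicate 1 (FDR = 0.0673 to 0.1101). *Il18* did not pass without any 1 library other than WT replicates 1 and 2 and *Nlrp3-/-* replicate 1 (FDR = 0.0546 to 0.0762) and *Il1rap* without any 1 library other than WT replicates 1 and 2 and *Nlrp3-/-* replicate 1 (FDR = 0.0566 to 0.0947).

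Granule and alarmin genes, which make up much of the neutrophil transcriptome, held no call. None of the 34 tested genes of granules and of cytosolic alarmins passed, where 16.4% of all tested genes were called. Their log2 fold changes ran from -0.50 to 0.71 with a median of 0.03. Of 7 primary granule genes only 1 had enough counts to be tested, so the result covers secondary and tertiary granules and alarmins. The secondary granule gene *Ngp* had a log2 fold change of -0.38 (FDR = 0.361), and the gelatinase granule genes *Mmp9* and *Retnlg* had 0.43 (FDR = 0.192) and 0.52 (FDR = 0.0831). *S100a8*, a chain of the alarmin calprotectin, had 50848, 55002, 40284 and 45561 CPM in WT and 52325, 51048, 54959.5 and 64069 CPM in *Nlrp3-/-* mice. Its other chain *S100a9* differed by 0.03 (SE 0.18). A p that misses the threshold does not show that these genes did not differ.

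Receptors of mature neutrophils held 1 higher and 4 lower of 31 tested, a share close to the 16.4% called over all tested genes (median 0.21, 3 higher and 3 lower after the correction, 0 to 7 higher with 1 library left out). *Cxcr2*, the chemokine receptor that releases neutrophils from the marrow, had 2279, 1483, 1878 and 2527 CPM in WT and 1134, 922, 742 and 621 CPM in *Nlrp3-/-* mice. All *Nlrp3-/-* mice lay below all WT mice. The integrin chain *Itgam* (-0.97, FDR = 0.000632), which is the CD11b of the sort, the adhesion receptor *Ceacam1* (-1.25, FDR = 0.00104) and the lectin *Clec5a* (-0.63, FDR = 0.0279, 0.460 after the correction) were lower, and the lectin *Clec4e* (0.68, FDR = 0.0189), a receptor for dead cells and fungi, was higher. *Itgam* had 443, 462, 372 and 435 CPM in WT and 245, 233, 193 and 201 CPM in *Nlrp3-/-* mice, and because CD11b was used to gate the cells its difference is one of transcript in cells selected for the protein. *Clec5a* fell short without any 1 library other than WT replicates 1 and 3 and *Nlrp3-/-* replicate 1 (FDR = 0.0541 to 0.0886) and *Clec4e* without WT replicate 2 or *Nlrp3-/-* replicate 4 (FDR = 0.0436 to 0.0675, or a fold change of 1.5 at most).

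Of 33 tested genes on the list of myeloid transcription factors and their regulators 0 were higher and 7 lower (median -0.24, 1 higher and 4 lower after the correction). Across all tested genes 4.7% were higher and 11.7% lower, and 4.43% and 6.01% after the correction. The 7 lower genes of the list included *Cebpz* (-1.29, FDR = 0.000751), *Smad7* (-1.51, FDR = 0.00309), *Zeb2* (-0.84, FDR = 0.00427, 0.571 after the correction), *Bach1* (-0.88, FDR = 0.00491, 0.0740 after the correction) and *Klf6* (-0.92, FDR = 0.00793, 0.132 after the correction). *Cebpz*, named for its CCAAT-binding domain but chiefly a nucleolar protein, had 192, 271, 318 and 240.2 CPM in WT and 86.6, 96.4, 89.4 and 144 CPM in *Nlrp3-/-* mice. *Smad7*, the feedback inhibitor of TGF-β signaling, had 18.2, 33.1, 21.7 and 19.7 CPM in WT and 10.2, 5.02, 9.82 and 7.26 CPM in *Nlrp3-/-* mice. In both genes the genotypes did not overlap. *Zeb2* represses alternative myeloid fates, *Bach1* represses heme and antioxidant genes, and *Klf6* is induced in activated myeloid cells.

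Interferon genes were called in both directions. Over 83 tested genes 6 were higher and 12 lower (median 0.14, 5 higher and 5 lower after the correction, 3 to 12 higher with 1 library left out). Of all tested genes 4.7% were called higher and 11.7% lower, and 4.43% and 6.01% after the correction. Among the regulatory factors *Irf7* (0.80, FDR = 0.00525) and *Irf3* (0.80, FDR = 0.0157, 0.141 after the correction) were higher, which induce type I interferon, and *Irf2* (-0.69, FDR = 0.00585, 0.0789 after the correction) and *Irf2bp2* (-1.32, FDR = 0.00214) were lower, a repressor of interferon responses and its binding partner. *Irf7* had 128, 95.4, 94.5 and 123 CPM in WT and 153, 199, 195 and 218 CPM in *Nlrp3-/-* mice. The sensor adaptor *Tmem173* (0.84, FDR = 0.0316, 0.0794 after the correction), or STING, was higher. Of the effectors *Ifit3* (1.34, FDR = 0.00494), *Lgals3bp* (1.11, FDR = 0.0139, 0.0733 after the correction) and *Ly6e* (0.60, FDR = 0.0190, 0.212 after the correction) were higher and *Sp100* (-1.78, FDR = 0.000136), *Parp9* (-0.90, FDR = 0.00794) and *Eif2ak2* (-1.03, FDR = 0.0153, 0.111 after the correction) lower. *Ifit3* had 122, 58.0, 73.7 and 140.4 CPM in WT and 154, 238, 276 and 326 CPM in *Nlrp3-/-* mice, where WT replicates 2 and 3 were the lowest, and *Sp100*, a nuclear body protein, had 80.3, 68.9, 53.1 and 57.0 CPM in WT and 13.6, 21.0, 16.7 and 24.1 CPM in *Nlrp3-/-* mice. Among the GBP and p200 genes and their like, *Trim30a* (-0.91, FDR = 0.00170, 0.0654 after the correction), *Gbp7* (-0.68, FDR = 0.0111, 0.542 after the correction) and *Mndal* (-0.78, FDR = 0.0139, 0.111 after the correction) were lower. *Irf3* was not called without *Nlrp3-/-* replicate 3 (FDR = 0.0551), *Tmem173* without any 1 library other than WT replicate 1 and *Nlrp3-/-* replicates 1 and 4 (FDR = 0.0649 to 0.0963) and *Lgals3bp* without *Nlrp3-/-* replicate 4 (FDR = 0.0509). *Ly6e* lost its call without WT replicates 2 or 3 or *Nlrp3-/-* replicates 3 or 4 (FDR = 0.0357 to 0.0598, or a fold change of 1.5 at most), *Eif2ak2* without WT replicate 4 (FDR = 0.0602) and *Gbp7* without WT replicate 3 (FDR = 0.0375 with a fold change of 1.5 at most). *Mndal* did not pass without *Nlrp3-/-* replicate 2 (FDR = 0.0522).

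Signaling to NF-κB, which primes *Nlrp3* and *Il1b*, held 3 higher and 4 lower of 41 tested, a share close to the 16.4% called over all tested genes (median 0.14, 2 higher and 2 lower after the correction, 2 to 5 higher with 1 library left out). The subunit *Rela* (0.82, FDR = 0.00787, 0.0741 after the correction) was higher and the subunit *Rel* (-1.40, FDR = 0.00414, 0.0681 after the correction) lower. *Rela* had 209, 122, 121 and 157 CPM in WT and 238, 276, 285 and 273 CPM in *Nlrp3-/-* mice, and *Rel* 76.2, 111, 48.4 and 54.5 CPM in WT and 16.3, 35.2, 28.8 and 29.6 CPM in *Nlrp3-/-* mice. The inhibitors *Nfkbid* (0.95, FDR = 0.00439, 0.0583 after the correction) and *Nfkbib* (0.76, FDR = 0.0267, 0.256 after the correction) were higher, and the ubiquitin ligase *Birc2* (-1.23, FDR = 0.000672) and the adaptors *Malt1* (-0.88, FDR = 0.00825, 0.395 after the correction) and *Bcl10* (-0.64, FDR = 0.0289) were lower. Among cytokines and chemokines 2 higher and 1 lower of 16 tested were called (0 higher and 1 lower after the correction, 0 to 1 higher and 0 to 1 lower with 1 library left out). The chemokines *Ccl3* (0.86, FDR = 0.0488, 0.0525 after the correction) and *Ccl4* (0.92, FDR = 0.0479, 0.0623 after the correction), which attract monocytes and T cells, were higher, and the angiogenic factor *Vegfa* (-0.66, FDR = 0.0342) was lower. *Nfkbib* fell short without WT replicates 2 or 4 or *Nlrp3-/-* replicates 2 or 4 (FDR = 0.0600 to 0.0950), *Bcl10* without any 1 library other than WT replicates 1 and 3 and *Nlrp3-/-* replicate 1 (FDR = 0.0561 to 0.0946) and *Ccl3* without any 1 library other than WT replicate 4 and *Nlrp3-/-* replicate 1 (FDR = 0.0522 to 0.178). *Ccl4* was not called without any 1 library other than WT replicate 3 (FDR = 0.0570 to 0.163) and *Vegfa* without any 1 library other than WT replicate 1 and *Nlrp3-/-* replicate 1 (FDR = 0.0511 to 0.0982).

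A list of genes linked to MDSC suppression, enzymes as well as surface and signaling genes, held 1 higher and 3 lower of 17 tested (median 0.03, 3 higher and 0 lower after the correction, 0 to 2 higher and 1 to 3 lower with 1 library left out). For all tested genes the shares were 4.7% higher and 11.7% lower, and 4.43% and 6.01% after the correction. None of its 6 tested enzymes was called. The lectin receptor *Olr1* (-1.58, FDR = 0.0146, 0.0635 after the correction), known as LOX-1 and a marker of human granulocytic MDSCs, was lower, with 5.38, 11.7, 11.7 and 7.70 CPM in WT and 3.40, 1.67, 3.07 and 4.01 CPM in *Nlrp3-/-* mice. The hypoxia factor *Hif1a* (-0.66, FDR = 0.0170, 0.485 after the correction) was lower, with 76.4, 102, 75.0 and 66.5 CPM in WT and 48.4, 54.7, 47.1 and 52.0 CPM in *Nlrp3-/-* mice. Both genes were without overlap, at a low level in the first. *Cd33* (0.62, FDR = 0.0295), an inhibitory Siglec, was higher. The arginase *Arg1* and the nitric oxide synthase *Nos2* had at most 0.170 and 0.558 CPM in any library, at or under 3 counts, so that no difference was detectable at this depth. *Arg2*, the mitochondrial arginase, had 0.43 (FDR = 0.135) and was not called. *Olr1* lost its call without WT replicate 3 (FDR = 0.0509), *Hif1a* without WT replicate 2 or *Nlrp3-/-* replicate 3 (FDR = 0.0493 to 0.0534, or a fold change of 1.5 at most) and *Cd33* without any 1 library other than WT replicates 2 and 3 and *Nlrp3-/-* replicate 1 (FDR = 0.0572 to 0.0902).

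In oxidant defence, NADPH oxidase subunits, which make the superoxide of neutrophils, held no call among 8 tested. Over all tested genes 4.7% were called higher and 11.7% lower, and 4.43% and 6.01% after the correction. Of the antioxidant enzymes 5 higher and 1 lower of 19 tested were called (median 0.41, 2 higher and 1 lower after the correction, 2 to 4 higher and 0 to 2 lower with 1 library left out). *Ftl1* (1.38, FDR = 0.00815, 0.0510 after the correction), *Prdx5* (0.89, FDR = 0.0205, 0.131 after the correction), *Gpx4* (2.00, FDR = 0.0316, 0.102 after the correction) and *Sod2* (0.71, FDR = 0.0457) were higher, which encode ferritin light chain, a peroxiredoxin, the glutathione peroxidase of membrane lipids and the mitochondrial superoxide dismutase, and *Txnrd1* (-1.08, FDR = 0.0140), thioredoxin reductase, was lower. *Ftl1* had 383, 199.8, 614 and 792 CPM in WT and 1387, 1406, 1050.0 and 1323 CPM in *Nlrp3-/-* mice, with a wide spread among WT mice. *Sod2* had 17.2, 19.8, 28.4 and 22.5 CPM in WT and 38.5, 34.6, 25.8 and 45.5 CPM in *Nlrp3-/-* mice, and the genotypes overlapped. *Nfe2l2* (NRF2), the factor that induces glutathione synthesis, its inhibitor *Keap1*, its targets and the sestrins held 1 higher and 5 lower of 12 tested (median -0.46, 0 higher and 4 lower after the correction, 0 to 1 higher with 1 library left out). The difference between these gene groups was not tested. *Nfe2l2* had 411, 415, 392 and 402 CPM in WT and 215, 209, 204 and 190.3 CPM in *Nlrp3-/-* mice, a log2 fold change of -0.98 (SE 0.13, FDR = 0.00028). The WT mice were close to each other and clearly above the *Nlrp3-/-* mice. *Gclm* (-2.19, FDR = 0.00266), the modifier subunit of the first enzyme of glutathione synthesis, and *Sesn2* (-3.53, FDR = 0.000269), a stress sensor, were lower, and *Taldo1* (0.59, FDR = 0.0189, 0.272 after the correction) of the pentose phosphate pathway was higher. *Prdx5* did not pass without *Nlrp3-/-* replicate 4 (FDR = 0.0683), *Gpx4* without any 1 library other than WT replicate 4 and *Nlrp3-/-* replicates 3 and 4 (FDR = 0.0686 to 0.119) and *Sod2* without any 1 library other than WT replicate 3 and *Nlrp3-/-* replicate 3 (FDR = 0.0840 to 0.141). *Txnrd1* fell short without *Nlrp3-/-* replicate 2 (FDR = 0.0508) and *Taldo1* without WT replicates 2 or 4 or *Nlrp3-/-* replicates 2 or 4 (FDR = 0.0366 to 0.0664, or a fold change of 1.5 at most).

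Among purinergic genes, which sense extracellular nucleotides, the receptors *P2ry13* (0.78, FDR = 0.0122) and *P2ry2* (0.86, FDR = 0.0405, 0.147 after the correction) were higher and adenosine deaminase *Ada* (-2.63, FDR = 0.0164) lower, 2 higher and 1 lower of 15 tested (median 0.33, 1 higher and 1 lower after the correction, 1 to 2 higher and 0 to 2 lower with 1 library left out). All tested genes had shares of 4.7% higher and 11.7% lower, and 4.43% and 6.01% after the correction. *P2ry13*, a receptor for ADP, had 243, 129.8, 213 and 225 CPM in WT and 301, 334, 369 and 391 CPM in *Nlrp3-/-* mice. *P2ry2*, a receptor for ATP and UTP, had 18.5, 12.5, 19.8 and 19.4 CPM in WT and 22.4, 36.6, 22.7 and 45.9 CPM in *Nlrp3-/-* mice. Neither receptor overlapped between the genotypes. Antigen presentation through MHC class II held 4 higher and 0 lower of 10 tested (median 0.55, 1 higher and 0 lower after the correction, 2 to 5 higher with 1 library left out), with *H2-Aa* (1.11, FDR = 0.0104), *H2-Eb1* (0.76, FDR = 0.00949, 0.0645 after the correction) and *H2-Ab1* (0.73, FDR = 0.0202, 0.273 after the correction). *H2-Aa* had 226, 96.0, 233 and 255 CPM in WT and 326, 398, 457 and 563 CPM in *Nlrp3-/-* mice. Macrophages, dendritic cells, monocytes and B cells express these genes too. The summed macrophage markers, at 117 to 216 CPM in WT and 356 to 491 CPM in *Nlrp3-/-* libraries, were higher in the same mice. So were the summed monocyte markers, at 512 to 729 and 748 to 894 CPM. The summed dendritic cell markers, which include *H2-Aa* itself, were 223 to 391 and 482 to 746 CPM. The summed B cell markers were 163 to 222 and 126 to 206 CPM. The part of these cells in the result was not tested. MHC class I genes held 0 higher and 2 lower of 19 tested (0 higher and 2 lower after the correction, 2 to 5 lower with 1 library left out), the heavy chain *H2-T24* (-1.20, FDR = 0.00777) and the chaperone *Pdia3* (-1.02, FDR = 0.00423). *P2ry2* was not called without any 1 library other than WT replicate 3 and *Nlrp3-/-* replicates 1 and 3 (FDR = 0.0585 to 0.143), *Ada* without WT replicate 2 or *Nlrp3-/-* replicate 4 (FDR = 0.0522 to 0.0532) and *H2-Ab1* without *Nlrp3-/-* replicates 3 or 4 (FDR = 0.0548 to 0.0716).

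Before the correction, genes of oxidative phosphorylation and of the cytosolic ribosome were more often called higher than lower. Among all tested genes 4.7% were higher and 11.7% lower, and 4.43% and 6.01% after the correction. Oxidative phosphorylation held 9 higher and 0 lower of 75 tested (median 0.39, 1 higher and 0 lower after the correction, 4 to 13 higher with 1 library left out). *Uqcrq*, a subunit of complex III, had 82.3, 74.5, 95.8 and 96.7 CPM in WT and 173, 173, 167 and 189 CPM in *Nlrp3-/-* mice, and *Ndufa7* of complex I had 79.7, 84.8, 95.1 and 95.1 CPM in WT and 141, 143, 133 and 137 CPM in *Nlrp3-/-* mice, a log2 fold change of 0.64 (SE 0.14, FDR = 0.00667, 0.0217 after the correction). None of 16 ATP synthase genes was called. Cytosolic ribosomal protein genes held 18 higher and 2 lower of 77 tested (median 0.42, 6 higher and 3 lower after the correction, 8 to 23 higher with 1 library left out). *Rpl37* (0.78, FDR = 0.00597, 0.0945 after the correction), *Rpl37a* (0.72, FDR = 0.00376, 0.152 after the correction) and *Rps29* (0.72, FDR = 0.00385) were higher, whereas *Rplp1* (-1.13, FDR = 0.00597) and *Rpl35* (-0.84, FDR = 0.0120) were lower. The reads of ribosomal protein genes are uncertain because many have near-identical pseudogenes. Mitochondrial ribosomal protein genes held 0 higher and 0 lower of 68 tested (2 higher and 1 lower after the correction) and constitutive proteasome genes 1 higher and 4 lower of 34 tested (1 higher and 3 lower after the correction, 0 to 2 higher with 1 library left out), such as *Psma4* (-1.08, FDR = 0.00337) and *Psmc1* (-0.90, FDR = 0.00835). The transcripts of the ribosomal protein genes had a median length of 1106 bases and those of oxidative phosphorylation 1141, among the shortest of the tested genes.

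In the mTOR and AKT pathway, which couples nutrients to growth, 7 higher and 6 lower of 42 tested were called (median 0.13, 5 higher and 2 lower after the correction, 2 to 7 higher with 1 library left out). The shares over all tested genes were 4.7% higher and 11.7% lower, and 4.43% and 6.01% after the correction. *Akt1* (1.08, FDR = 0.0145, 0.0880 after the correction) and the Ragulator anchor *Lamtor1* (1.12, FDR = 0.00145) were higher, and *Gsk3b* (-1.22, FDR = 0.000526), *Rps6kb1* (-0.91, FDR = 0.00380, 0.195 after the correction) and *Pik3r1* (-0.83, FDR = 0.00438, 0.235 after the correction) lower. *Akt1* had 179, 109, 318 and 324 CPM in WT and 501, 493, 447 and 527 CPM in *Nlrp3-/-* mice, where WT replicates 1 and 2 lay below the other 2, and *Gsk3b*, a kinase that AKT inhibits, had 245, 346, 213 and 213 CPM in WT and 116, 98.8, 125 and 95.2 CPM in *Nlrp3-/-* mice. *Lamtor1* had 106, 57.2, 109 and 96.1 CPM in WT and 181, 204, 205 and 210.2 CPM in *Nlrp3-/-* mice. Glycolysis and hypoxia genes held 2 higher and 2 lower of 34 tested (1 higher and 1 lower after the correction, 1 to 4 higher and 0 to 2 lower with 1 library left out), with *Aldoa* (0.63, FDR = 0.0104, 0.294 after the correction) and *Egln2* (0.76, FDR = 0.0123, 0.194 after the correction) higher. Of cell survival genes 3 higher and 1 lower of 22 tested were called (2 higher and 0 lower after the correction). The BH3-only gene *Bbc3* (1.00, FDR = 0.00419, 0.0888 after the correction) and the initiator caspase *Casp9* (1.12, FDR = 0.00635) were higher, and the caspase inhibitor *Xiap* (-1.08, FDR = 0.00321, 0.144 after the correction) was lower. Autophagy held 2 higher and 3 lower of 27 tested (1 higher and 2 lower after the correction, 0 to 2 higher with 1 library left out), with the scaffold *Rb1cc1* (-1.39, FDR = 8.47e-05) the lowest by p. The called share of the autophagy genes was close to the 16.4% over all tested genes. *Aldoa* lost its call without WT replicate 2 (FDR = 0.0250 with a fold change of 1.5 at most).

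Of 66 tested chromatin regulators 36 were lower and 2 higher, with a median log2 fold change of -0.72. These genes have long transcripts (median 7633 bases) and a GC content near that of all genes (median 48.0%), and after the correction 24 were lower and 3 higher, with a median of -0.39 against 0.06 over all tested genes. *Ash1l* (-1.29, FDR = 5.04e-05), *Suz12* (-2.00, FDR = 6.49e-05) and *Ep300* (-1.01, FDR = 0.000299) were the lower writers with the smallest p, a histone methyltransferase, a subunit of the Polycomb complex PRC2 and a histone acetyltransferase. *Suz12* had 107, 117, 86.2 and 71.4 CPM in WT and 21.6, 32.2, 24.2 and 17.2 CPM in *Nlrp3-/-* mice. Among remodelers and readers *Smc3* (-1.68, FDR = 2.25e-05), *Arid4b* (-1.56, FDR = 2.41e-05) and *Atrx* (-1.56, FDR = 3.33e-05) were lower, and *Smc3* had 131, 137, 126 and 119.8 CPM in WT and 38.4, 44.3, 35.7 and 41.7 CPM in *Nlrp3-/-* mice. All WT mice lay above all *Nlrp3-/-* mice in both. The 2 higher genes were *Hdac5* (0.92, FDR = 0.00371) and *Arid1a* (0.61, FDR = 0.0154). Zinc finger genes named Zfp held 7 higher and 23 lower of 176 tested (median -0.05, 6 higher and 11 lower after the correction, 2 to 8 higher with 1 library left out), where 4.7% and 11.7% of all tested genes were called, led by *Zfp36l2* (-1.86, FDR = 4.43e-05), a protein that destabilizes AU-rich mRNA, and splicing factors 2 higher and 5 lower of 50 tested (4 higher and 4 lower after the correction, 0 to 3 higher and 2 to 6 lower with 1 library left out). *Arid1a* did not pass without WT replicate 1 or *Nlrp3-/-* replicate 4 (FDR = 0.0325 to 0.0538, or a fold change of 1.5 at most).

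Proliferation genes were lower where they were called. Among all tested genes the shares were 4.7% higher and 11.7% lower, and 4.43% and 6.01% after the correction. The list of S and M phase genes held 0 higher and 6 lower of 27 tested (median -0.53, 0 higher and 5 lower after the correction), with *Top2a* (-1.99, FDR = 0.00187), *Mki67* (-2.74, FDR = 0.00230) and *Nusap1* (-1.43, FDR = 0.00984, 0.0501 after the correction). *Top2a*, the topoisomerase of dividing cells, had 90.5, 138, 41.4 and 77.3 CPM in WT and 14.9, 19.9, 37.0 and 15.1 CPM in *Nlrp3-/-* mice. *Mki67* had 97.4, 153, 29.3 and 111 CPM in WT and 14.6, 6.88, 29.8 and 6.31 CPM in *Nlrp3-/-* mice, where WT replicate 3 lay below *Nlrp3-/-* replicate 3. Immediate early genes, which are induced within minutes of stimulation and of tissue dissociation, held 6 higher and 2 lower of 18 tested (median 0.55, 3 higher and 1 lower after the correction, 3 to 7 higher and 1 to 2 lower with 1 library left out). *Ier2* (0.91, FDR = 0.00390, 0.115 after the correction), *Egr2* (1.99, FDR = 0.00409) and *Dusp2* (1.18, FDR = 0.00867, 0.0789 after the correction) were higher, and *Jund* (-0.77, FDR = 0.0323) and *Klf6* (-0.92, FDR = 0.00793, 0.132 after the correction) lower. *Egr2* had 14.9, 4.07, 22.9 and 25.2 CPM in WT and 57.7, 55.4, 48.9 and 106 CPM in *Nlrp3-/-* mice, with the lowest value in WT replicate 2. Heat shock genes held 0 higher and 1 lower of 12 tested (1 higher and 2 lower after the correction, 1 to 3 lower with 1 library left out), *Hsph1* (-1.96, FDR = 0.00546). *Jund* fell short without any 1 library other than WT replicates 1 and 4 and *Nlrp3-/-* replicate 2 (FDR = 0.0690 to 0.0953).

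**Figure D4:**
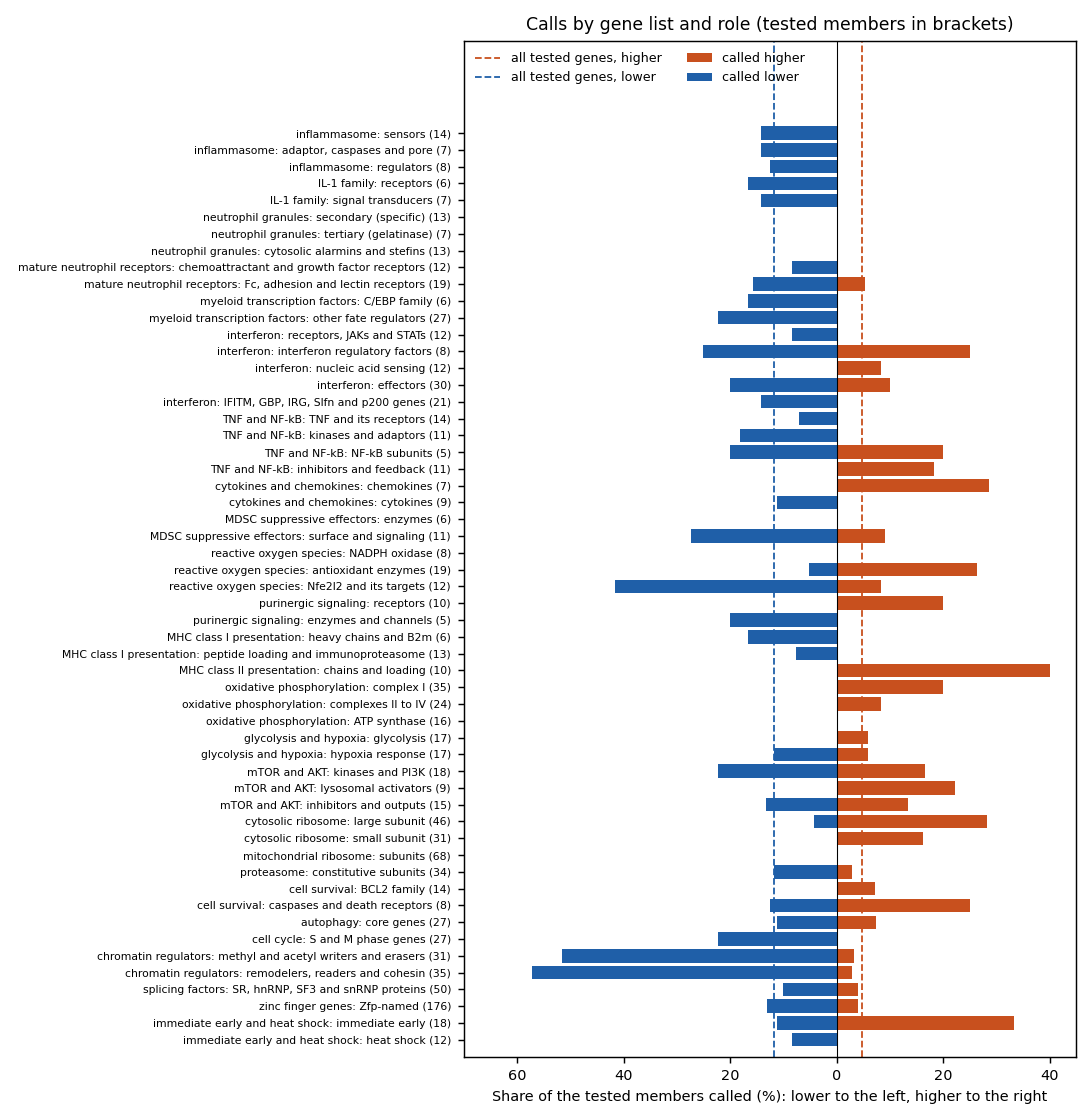
The share of the tested members of each list and role that was called, higher in *Nlrp3-/-* mice to the right (orange) and lower to the left (blue), for roles with at least 5 tested members. The dashed lines are the shares over all tested genes, 4.7% higher and 11.7% lower, and the bars of both chromatin roles reach farthest to the left.

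Genes near *Nlrp3* were examined because a targeted allele can keep flanking sequence of the strain in which it was made. Within 5 Mb of the start of *Nlrp3* 6 genes were higher and 5 lower, *Nlrp3* included, of 76 tested (14.5%), and within 10 Mb 12 and 13 of 138 (18.1%). The shares were 16.2% on the rest of chromosome 11 and 16.4% over all tested genes. The genes within 5 Mb, besides *Nlrp3*, were *Rnf187* (0.59), *2610507I01Rik* (-1.17), *Akap10* (-1.34), *Specc1* (-1.90), *Ncor1* (-0.61), *2410006H16Rik* (0.62), *Cdc42se2* (0.63), *Hint1* (0.68), *Anxa6* (0.94) and *Slc36a1* (1.03), with the log2 fold change in brackets. The count of 11 fell to 5, 6, 7, 7 and 7 without WT replicate 2, *Nlrp3-/-* replicate 2, WT replicate 4, *Nlrp3-/-* replicate 1 and *Nlrp3-/-* replicate 3. *2610507I01Rik* had 124, 142, 105 and 96.7 CPM in WT and 64.8, 43.9, 51.5 and 46.8 CPM in *Nlrp3-/-* mice, a log2 fold change of -1.17 (SE 0.18, FDR = 0.000654), and *Anxa6*, a membrane-binding annexin, 146, 108, 177 and 123 CPM in WT and 194, 289.6, 277 and 306 CPM in *Nlrp3-/-* mice, a log2 fold change of 0.94 (SE 0.19, FDR = 0.00425). *Rnf187* was not called without WT replicates 2 or 4 or *Nlrp3-/-* replicates 2 or 3 (FDR = 0.0359 to 0.0614, or a fold change of 1.5 at most), *Akap10* without any 1 library other than WT replicates 1 and 3 and *Nlrp3-/-* replicate 3 (FDR = 0.0570 to 0.116) and *Specc1* without WT replicate 2 or *Nlrp3-/-* replicate 4 (FDR = 0.0541 to 0.0606). *Ncor1* lost its call without WT replicates 1 or 4 or *Nlrp3-/-* replicates 1 or 3 (FDR = 0.0275 to 0.0510, or a fold change of 1.5 at most), *Cdc42se2* without any 1 library other than WT replicate 4 and *Nlrp3-/-* replicate 3 (FDR = 0.0543 to 0.114) and *Hint1* without any 1 library other than WT replicate 1 and *Nlrp3-/-* replicate 1 (FDR = 0.0527 to 0.116). *Slc36a1* did not pass without any 1 library other than WT replicate 4 and *Nlrp3-/-* replicate 4 (FDR = 0.0590 to 0.142).

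Whether the genotype difference was the same in the paired M-MDSCs was tested gene by gene in a fit of all 16 libraries. The difference between the subsets passed an FDR of 0.05 for 3 of 10696 genes (0.028%), and 480 had an unadjusted p under 0.05. DESeq2 called 8 and the fit with the mouse as a block 4. *Gdpd3* was higher without *Nlrp3* in both subsets, but by 4.81 in G-MDSCs and 2.98 in M-MDSCs, a difference of 1.94 (SE 0.24, FDR = 0.000933). The fold changes within a subset come from that subset's own fit. In M-MDSCs *Gdpd3* had 58.8, 49.3, 58.0 and 67.3 CPM in WT and 486, 412, 481 and 458 CPM in *Nlrp3-/-* mice, where every *Nlrp3-/-* mouse lay above every WT mouse, as in G-MDSCs. In M-MDSCs *Pisd-ps1* had 13.5, 11.2, 14.4 and 12.5 CPM in WT and 6.65, 14.9, 8.39 and 6.28 CPM in *Nlrp3-/-* mice, which overlap. It was higher in *Nlrp3-/-* G-MDSCs and had a log2 fold change of -0.52 in M-MDSCs (FDR = 0.280), a difference of 2.09 (SE 0.32, FDR = 0.0103). *Adgrg5*, an adhesion G protein-coupled receptor, had 4.60, 7.73, 6.99 and 5.80 CPM in WT and 123, 118, 81.7 and 106 CPM in *Nlrp3-/-* mice and was higher in *Nlrp3-/-* M-MDSCs (log2 fold change 4.07, FDR = 2.24e-06) and had 2.05, 0.813, 2.84 and 1.54 CPM in WT and 3.56, 1.67, 0.614 and 3.25 CPM in *Nlrp3-/-* mice in G-MDSCs, where it was rare and not called (0.29, FDR = 0.786). The difference was -3.71 (SE 0.57, FDR = 0.0103). *Gdpd3* passed in each of the 8 fits without the libraries of 1 mouse. *Pisd-ps1* did not pass without WT replicate 1, 3 or 4 or *Nlrp3-/-* replicate 1 or 4 (FDR = 0.0519 to 0.152), and *Adgrg5* without WT replicate 1, 3 or 4 or *Nlrp3-/-* replicate 2 (FDR = 0.0763 to 0.191).

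The next genes by the FDR of this test among those called in G-MDSCs did not pass it. They were *Slco4a1* (difference 2.54, FDR = 0.422), *Sdc3* (difference 1.46, FDR = 0.502) and *Plxnb2* (difference 1.46, FDR = 0.663). *Sdc3*, a heparan sulfate proteoglycan, had 8.46, 3.52, 3.59 and 6.16 CPM in WT and 18.2, 22.1, 15.5 and 19.1 CPM in *Nlrp3-/-* mice and a log2 fold change of 0.46 in M-MDSCs (FDR = 0.167). *Il1b* was higher in *Nlrp3-/-* G-MDSCs (0.70) and had -0.45 in M-MDSCs (FDR = 0.274), a difference of 1.25 (FDR = 0.844) that did not pass. For the macrophage markers 6 were higher in *Nlrp3-/-* M-MDSCs too, *Vcam1* by 1.93 and *C1qc* by 1.96, and 30 chromatin regulators were lower, where 3.51% and 7.1% of all genes tested in M-MDSCs were called higher and lower. *Plxnb2* fell short without WT replicates 1 or 3 or *Nlrp3-/-* replicate 2 (FDR = 0.0502 to 0.0815).

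**Figure D5:**
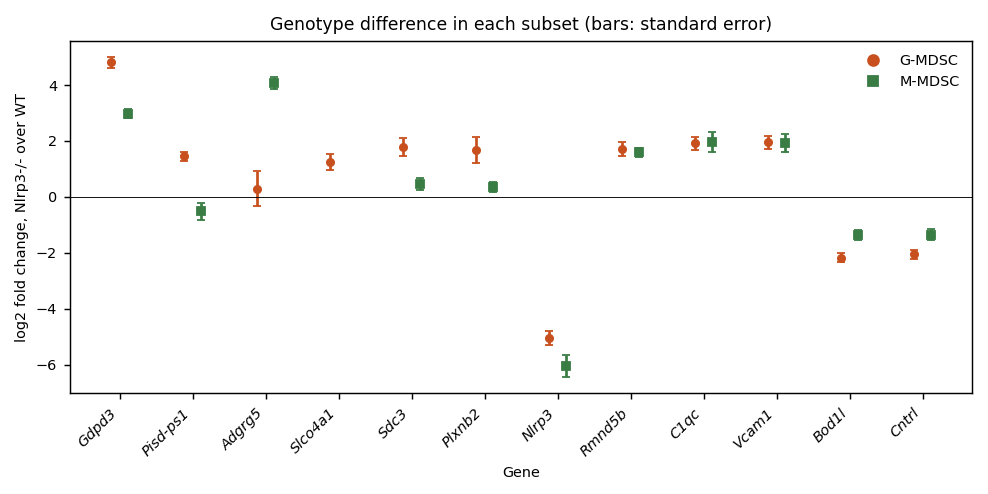
Log2 fold change of *Nlrp3-/-* over WT in G-MDSCs (circles) and M-MDSCs (squares) for 12 named genes, with standard errors as bars and 4 mice per genotype in each subset. *Slco4a1* was not tested in M-MDSCs. *Gdpd3*, *Pisd-ps1* and *Adgrg5*, on the left, are the genes for which the difference between the subsets passed, and the circles and squares of *C1qc* and *Vcam1* lie close together.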

How the data were processed

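QuantSeq 3′ libraries were made from 300 ng of RNA with 15 or 17 PCR cycles. Per the labels and the methods of the study, the authors aligned reads to mm10 with HISAT2 (version 2.1.0), counted them per gene with HTSeq in stranded mode, and deposited raw counts of 24421 gene symbols per library. All rows named a gene. No replicate pair was identical. Counts were filtered (filterByExpr), scaled by TMM and tested with edgeR 4.0.16 (glmQLFit and glmQLFTest, R 4.3.3) on the 8 G-MDSC libraries. Genes were called at FDR under 0.05 and a fold change above 1.5. CPM use TMM-scaled library sizes. The difference between subsets was an interaction in a fit of all 16 libraries. Same-numbered G- and M-MDSC libraries of a genotype bear 1 animal name in the labels and were taken as 1 mouse (r of their deviations -0.000299 to 0.505). For the correction, GC content and log2 length of the longest GENCODE M21 transcript were fitted per library with natural splines (R package splines) and entered as offsets. Python 3.11.15, pandas 2.3.3 and matplotlib 3.10.9 were used for summaries. The scripts were tested on simulated data.

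Alternatives were DESeq2 1.42.0, edgeR's exact test, other scalings and filters, the replicate number as a block, the correction and each library left out. Leaving out *Rn45s* and the alternatives for chromosome 11 and GC content were chosen after seeing the data. Counts of 3 per library set the floor, which covers counting error only. The members and gene lists were chosen with earlier results of these data known. Named genes are *Nlrp3*, genes named in the study, the 12 called genes in each direction with the smallest p and no overlap, the 8 most abundant called genes in each direction, up to 3 called genes per direction in each role (2 where none was called), the 5 leading genes of the difference test, called genes within 5 Mb of *Nlrp3* and cell type markers. Some called genes of the lists are not reported here. Promoter sequences are from RefSeq (GRCm38.p6), and *C1qa* and *Vcam1* had no entry.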

Additional observations from a re-analysis of the deposited data

Results flagged for a closer look

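In 4 genes 1 mouse stood apart from the other 3 of its group by Dixon's test at the 95% level. *Rmnd5b* in WT replicate 2 had 26.6 CPM, against 56.9 to 58.8 CPM in the other 3 mice of its group. *Axl* in WT replicate 1 had 20.8 CPM, against 7.05 to 8.93 CPM in the other 3 mice of its group, and *Jmjd1c* in WT replicate 2 had 305 CPM, against 215 to 227 CPM in the other 3 mice of its group. *Rab27a* in *Nlrp3-/-* replicate 4 had 43.6 CPM, against 54.6 to 56.7 CPM in the other 3 mice of its group. All 4 genes were called, and each call held in the fits without 1 library. Over 102 groups of 4 tested, chance alone gives such a flag in about 1 of 20.

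For 3 genes the genotype effect differed between the subsets in the test of the difference itself. The log2 fold change in G-MDSCs minus that in M-MDSCs was 1.94 for *Gdpd3* (FDR = 0.000933), 2.09 for *Pisd-ps1* (FDR = 0.0103) and -3.71 for *Adgrg5* (FDR = 0.0103). *Adgrg5* was not called in G-MDSCs.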

How the results depend on the processing

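The main counts were 1522 called genes, 436 higher and 1086 lower. The correction for GC content and length gave 968 genes with 557 lower. The replicate block gave 985 genes with 199 higher, and the block with the correction 400 genes, 122 higher and 278 lower. Library size only gave 793 and the fit of all 16 libraries 828 higher genes. Leaving out each library in turn gave 1104 to 1544 genes, 217 to 532 higher and 871 to 1057 lower. The other tests, scalings and filters stayed within 1.5 times of each count. WT and *Nlrp3-/-* mice with the same number are different mice and their deviations did not go together (r = -0.332 to -0.0543), so the number is not a pairing and calls lost under the block do not show a weaker effect. Of 150 called genes named in the text, 91 kept the call after the correction, 110 with the block, 149 with DESeq2, 139 with library size only and 116 to 137 without 1 library, and none changed sign in these fits. Roles with at least 1 call numbered 57, and 38 to 63 over all alternatives. Within 5 Mb of *Nlrp3* the 11 calls became 7 after the correction, 4 with the block, 2 with both, 18 in the fit of all 16 libraries, 17 without a filter and 5 to 12 without 1 library. The difference between the subsets passed for 3 genes, 8 with DESeq2, 5 without a filter and 1 to 4 without 1 mouse. The median GC content of higher minus lower genes, 9.57 percentage points, turned to -1.36 after the correction and -2.46 with the block as well, which the construction of the correction brings about. The *Nlrp3-/-* minus WT share of the 20 highest genes, -7.86 percentage points, turned to 0.967 without *Rn45s*. Genes that were not called and changed sign were *S100a9*, at -0.026 to 0.096 without 1 library and below 0 without *Nlrp3-/-* replicate 4 or WT replicate 3, and *Adgrg5*, at -0.014 to 0.638 and below 0 without *Nlrp3-/-* replicate 1. The causes were not tested. Genes near 3 counts per library are limited by depth, as *Arg1* and *Nos2* were.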
